A study of Mus musculus with 3 samples.

Results

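The Notch pathway was examined through 10 of its genes, the receptors *Notch1*, *Notch2*, and *Notch3*, the ligands *Dll1*, *Dll3*, and *Jag1*, the glycosyltransferase *Lfng*, and the target genes *Hes1*, *Hes5*, and *Hey1*. They were taken by gene symbol from a table of 30854 symbols, in which all 10 had a row of their own. The samples were embryonic regions of wild-type mouse embryos at the early headfold (EHF) stage. By the labels the strain was Cd-1, while the methods of the study name wild-type ICR mice. The regions were profiled on 3 Illumina bead arrays (replicates 1, 2, and 3). These arrays were the only group, without a mutant, a treatment, or another stage, so a gene's signal could be set only against the background of the array it was read on. Neither the labels nor the methods settle whether an array held the RNA of 1 embryo or of a pool. The p-values over arrays therefore speak for these samples only.

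Notch receptors are activated by ligands on neighboring cells. Ligand binding leads to cleavage of the receptor by an ADAM protease and then by gamma-secretase, and the released intracellular domain joins the DNA-binding protein RBPJ and a Mastermind coactivator to switch on targets such as the *Hes* and *Hey* repressors. Around the headfold stage the pathway is known for its part in somite segmentation, in early vessel and heart formation, and in left-right patterning, where Dll1 is needed for *Nodal* expression around the node.

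Of the 10 genes, 5 were detected on every array and 5 were not. The receptors *Notch1* and *Notch3*, the ligand *Dll1*, and the targets *Hes1* and *Hey1* had a detection p under 0.01 on all 3 arrays, which was taken as expression above background. For a symbol with 1 probe, the detection p gives the fraction of that array's negative controls that were as bright or brighter, so a value of 0 means that none was. For a symbol with several probes it is a combined value that cannot be read as such a fraction, and it need not follow the mean signal. *Notch2*, *Dll3*, *Jag1*, *Lfng*, and *Hes5* did not meet this rule. The share of 5 of 10 stood beside 20.6% of all symbols on the table, and no test of the list was made. A one-sided limma test of the level above background, with Benjamini-Hochberg adjustment over all symbols, called the same 5 genes, beside 25.7% of all symbols. The background level of this test, defined below, was taken from the same detection p-values of the same arrays. A single-probe gene detected on every array therefore had no negative level on any array, and the match of the calls is not independent support. Its adjusted p-values ran from 7.84e-08 for *Notch1* to 4.99e-91 for *Hey1*. The standard error of this fit was 0.15 for every gene, so these values follow the level and not a gene's own spread. With 1 background level for all arrays the limma adjusted p was 0.00872 for *Notch1* and 1.90e-05 for *Hey1*. The limma call of *Notch1* was lost in some alternatives, given below. Probes differ in how strongly they hybridize, and the levels of different genes were therefore not ranked against each other.

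2 of the genes that were not detected throughout, *Hes5* and *Lfng*, are textbook targets of the pathway, and their upstream sequences are shown because each holds the RBPJ core motif TGGGAA on both strands. RefSeq windows of 250 bases before the gene start (build GRCm38.p6) were matched for 8 of the 10 genes, all but *Hes1* and *Hey1*, with a pair of windows for *Dll1*. The motif, read on both strands, was found in the windows of *Hes5* and *Lfng* and in none of the other 6 genes, while 21.6% of all 32851 windows of that length hold it and 2.77% hold it at 2 or more positions. The *Hes5* stretch lies at chr4:154960685-154960858 and the *Lfng* stretch at chr5:140607194-140607250, both on the plus strand, and capitals mark the motif or its reverse complement TTCCCA.
Hes5: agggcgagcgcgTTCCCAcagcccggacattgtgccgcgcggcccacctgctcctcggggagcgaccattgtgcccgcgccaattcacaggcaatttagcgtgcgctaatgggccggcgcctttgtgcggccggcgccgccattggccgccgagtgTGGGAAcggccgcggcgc
Lfng: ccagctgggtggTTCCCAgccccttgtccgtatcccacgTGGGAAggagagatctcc
In *Hes5* the motif starts 226 and 82 bases before the gene start, and in *Lfng* 135 and 108 bases before it. The *Lfng* copy at 108 bases overlaps a CACGTG motif that starts at 112 bases, a sequence bound by repressors of the Hes and Hey class. CACGTG was found in no other of these genes and in 6.02% of all windows. CACNAG, the N-box of Hes proteins, was found in *Notch1*, *Notch2*, *Notch3*, and *Lfng*, and in 36.7% of all windows. A match of letters is a description of the sequence and not a binding site.

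Of the receptors, *Notch1* and *Notch3* were detected on every array and *Notch2* on 1. *Notch1*, which acts in somite formation and in blood vessels, had deposited log2 signals of 7.28, 6.82, and 6.77 on replicates 1, 2, and 3. No negative control was as bright on replicates 1 and 3, and on replicate 2, with 27 beads, its detection p was 0.00107. The lowest signal of a single-probe symbol with a detection p above 0 and under 0.01 served as the background level of an array, and was 6.69, 6.66, and 6.58 on the deposited scale. *Notch1* thus lay 0.60, 0.16, and 0.19 above background before normalization, and replicate 1 was the high array. After background correction with the normexp model and quantile normalization its level was 0.82 above background on the log2 scale. In the limma fit the standard error was 0.15 for every gene, and the shift of the background level between arrays, which all genes share, is part of it. With 1 background level for all arrays, which removes that shift, the standard error of *Notch1* was 0.15 and its adjusted p 0.00872. The call was lost in 2 alternatives, with an adjusted p of 0.0595 after normexp and median scaling and of 0.0697 on the deposited signals, and without replicate 1 the level was 0.52. Over 10 alternatives the level ran from 0.30 to 1.14.

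*Notch3*, a receptor best known from vascular smooth muscle, had log2 signals of 7.73, 7.26, and 7.28, brighter than all negative controls of each array. Its normalized level was 1.78 above background, with single arrays at 2.10, 1.46, and 1.77. With a common background level the standard error was 0.13 and the adjusted p 0.00023, and over 10 alternatives the level ran from 0.78 to 2.10, with a largest adjusted p of 0.00312. That all 3 arrays lay above the background level follows from the detection call of a single-probe gene.

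*Notch2* was measured by at least 2 probes, whose signals were averaged by the authors. Its log2 signals were 6.57, 6.60, and 6.34, with detection p-values of 0.0855, 0.00313, and 0.83. Only replicate 2 met the threshold, and the mean signal lay below the background level on every array. The normalized level was -0.42 relative to background (adjusted p from limma 1).

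Among the ligands, *Dll1* alone was detected throughout. *Dll1*, the ligand that drives Notch signaling in presomitic mesoderm, had log2 signals of 7.35, 7.05, and 6.84 (41, 41, and 46 beads), always brighter than the negative controls. The signals lay 0.66, 0.39, and 0.26 above the background level of their array on the deposited scale. After normalization the level was 1.11 above background (standard error 0.08 and adjusted p 0.000183 with a common background level). Over 10 alternatives it stayed between 0.42 and 1.43, with a largest adjusted p of 0.0158.

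*Dll3*, a divergent family member that does not activate Notch in neighboring cells, had log2 signals of 6.78, 6.47, and 6.34 and detection p-values of 0.00214, 0.418, and 0.747. Replicate 1 met the threshold and the other arrays were far from it. *Jag1*, a ligand of the Serrate class with roles in heart and ear development, had nearly equal signals of 6.54, 6.53, and 6.56. Its detection p-values were 0.33, 0.161, and 0.015, so no array met the threshold. The normalized levels of *Dll3* and *Jag1* relative to background were -0.36 and -0.27.

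*Lfng*, the fringe enzyme that extends sugars on Notch and changes its response to ligands, also met the threshold on no array. Its log2 signals were 6.56, 6.47, and 6.46 with detection p-values of 0.199, 0.418, and 0.15. All 3 values lay below the background level of their array, by a mean of -0.14 (SD 0.03, n = 3) on the deposited scale.

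The targets *Hes1* and *Hey1* were above background on every array, *Hes5* on 1. *Hes1*, a repressor that keeps progenitor cells undifferentiated, had log2 signals of 7.97, 7.91, and 7.39, with a detection p of 0 throughout. The signal on replicate 1 came from 18 beads, against 46 and 49 on the others. Its level was 2.31 above background, with a standard error of 0.07 and an adjusted p of 1.06e-05 with a common background level. *Hey1*, a related repressor of mesoderm and the cardiovascular system, had log2 signals of 8.65, 8.45, and 7.74, also with a detection p of 0 throughout. Its level was 3.02 above background (standard error 0.11, adjusted p 1.90e-05 with a common background level). For both genes replicate 3 was the low array. Over 10 alternatives the level of *Hes1* stayed between 1.10 and 2.63 and that of *Hey1* between 1.62 and 3.41, with largest adjusted p-values of 0.00157 and 0.00185.

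*Hes5*, a target typical of neural progenitors, was measured by at least 2 probes and had log2 signals of 6.69, 6.46, and 6.45. Its detection p-values were 0.000276, 0.467, and 0.134, and the normalized level was -0.35 relative to background. The signal on replicate 1 lay 0.01 above the background level of that array, and the other values lay below it.

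**Figure D1:**
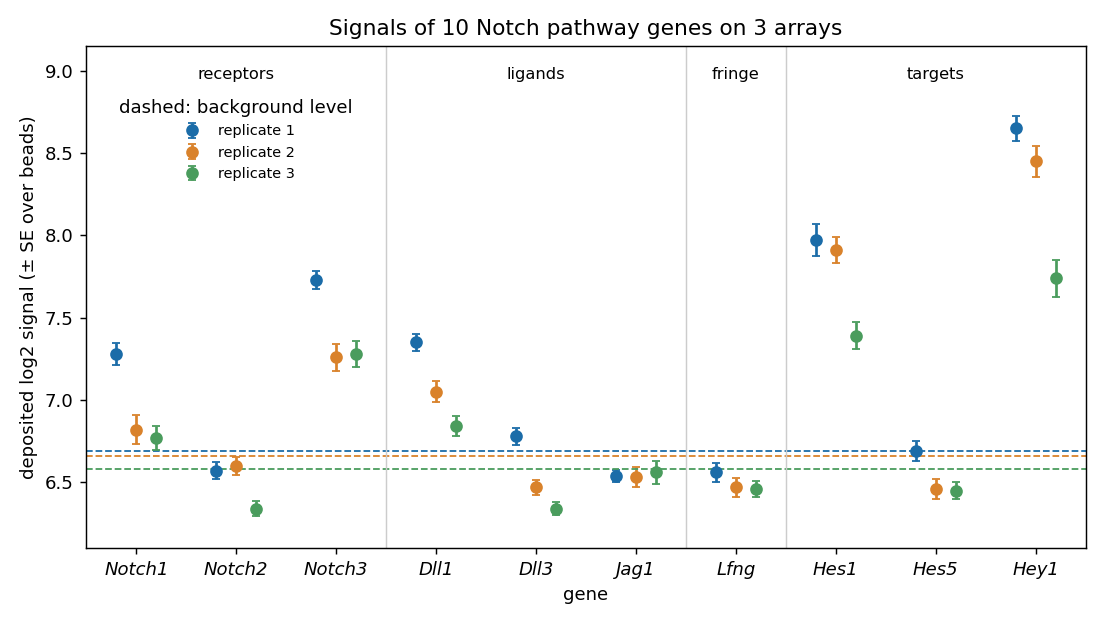
Deposited log2 signals (vertical axis) of the 10 Notch pathway genes (horizontal axis, grouped by role) on replicates 1, 2, and 3, with bars for the standard error over beads and dashed lines at the background level of each array (6.69, 6.66, and 6.58). *Notch1*, *Notch3*, *Dll1*, *Hes1*, and *Hey1* lie above the lines on all 3 arrays, which follows from their detection calls.

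In the plot of signals by gene, the 3 points of each detected gene clear the dashed lines, and the other genes straddle the lines or stay under them. The lines were set from the detection p-values. A single-probe gene detected on an array lies on or above its line by construction, and this is no separate observation. Of the detection p-values of those 5 genes, 3 met the threshold, and the rest ran from 0.015 (*Jag1*, replicate 3) to 0.83 (*Notch2*, replicate 3).

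**Figure D2:**
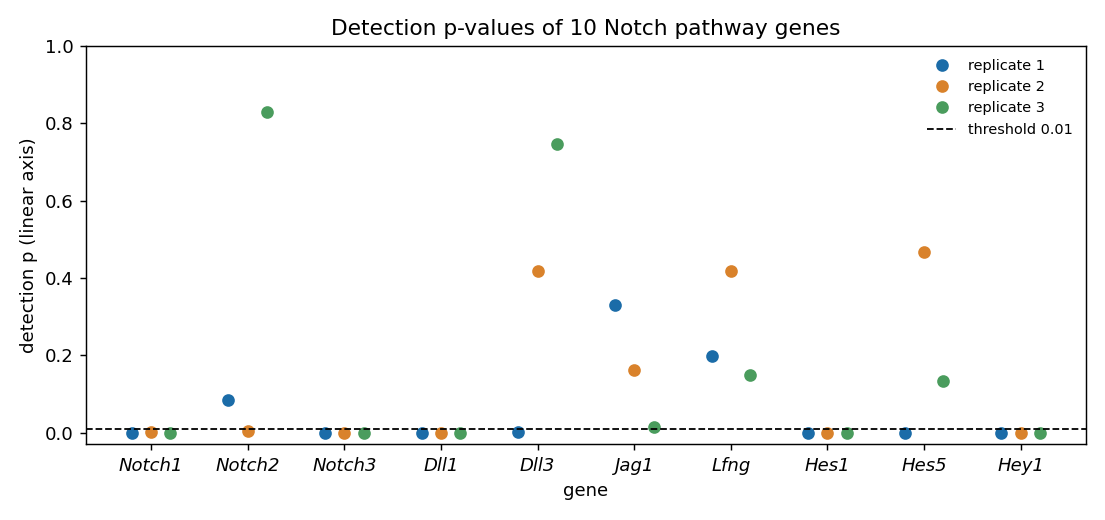
Detection p-values (vertical axis, linear) of the 10 Notch pathway genes (horizontal axis) on replicates 1, 2, and 3, with the threshold of 0.01 dashed. The 5 detected genes lie at or near 0 on every array, while *Notch2* and *Dll3* run from under 0.01 on 1 array to 0.83 and 0.747 on replicate 3.

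The spread between arrays was set beside the error of reading beads. It holds the differences between samples and the shift of each array as a whole, so a ratio above 1 is the usual case. The standard error over beads was deposited on the linear scale and was converted to log2. For *Hey1* the SD of the log2 signal over arrays was 0.48, 5.08 times the mean bead error of 0.094. The ratio was 4.29 for *Dll1*, 3.78 for *Notch1*, 3.74 for *Hes1*, and 3.67 for *Notch3*. Over the 4578 detected single-probe symbols its median was 3.13. Among the undetected genes it ran from 0.256 (*Jag1*) to 4.84 (*Dll3*), with 1.09 for *Lfng*, 2.30 for *Hes5*, and 2.77 for *Notch2*.

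All 5 detected genes had their highest deposited signal on replicate 1, and so did 84.9% of all symbols above background. After median centring all 5 were still highest on replicate 1, as were 73.9% of all symbols above background. After quantile normalization *Notch1* and *Dll1* were highest on replicate 1, *Hes1* and *Hey1* on replicate 2, and *Notch3* on replicate 3. The shares of all symbols above background that were highest on replicates 1, 2, and 3 were then 29.4%, 29.4%, and 41.2%.

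Deviations from the mean of the 3 arrays were compared between the detected receptors, *Notch1* and *Notch3*, and the detected targets, *Hes1* and *Hey1*. This contrast was not among the planned comparisons. After normalization they were of opposite sign on replicates 2 and 3, though not on replicate 1, nor on replicate 3 of the deposited signals. The 3 deviations of a gene sum to 0, so the signs on different replicates are not separate observations. The ligand *Dll1* lay at 0.18, -0.12, and -0.06 on replicates 1, 2, and 3 after normexp and quantile normalization. On replicate 1, *Notch1* and *Notch3* lay at 0.35 and 0.16 after normexp and quantile normalization, *Hey1* at 0.14, and *Hes1* at -0.03, where the quartiles of all detected symbols were -0.11 and 0.10. On replicate 2, *Notch1* and *Notch3* lay at -0.39 and -0.36, under the quartiles of -0.12 and 0.10, and *Hes1* and *Hey1*, at 0.17 each, above them. On replicate 3, *Hes1* and *Hey1* lay at -0.14 and -0.31 and *Notch1* and *Notch3* at 0.05 and 0.20, where the quartiles were -0.12 and 0.15. On the deposited scale minus background, *Notch1* and *Notch3* were again under the lower quartile on replicate 2, at -0.16 and -0.18 against -0.04. On replicate 3 all 4 genes lay below their mean on this scale, *Notch1* at -0.12, *Notch3* at -0.08, *Hes1* at -0.31, and *Hey1* at -0.48, where the lower quartile was -0.30. These are differences between replicates of 1 group and were not tested. *Notch1* on replicate 2 was read from 27 beads and lay 0.16 above the background level on the deposited scale. In whole embryonic regions, fewer cells that express a gene and less of its RNA per cell cannot be told apart.

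**Figure D3:**
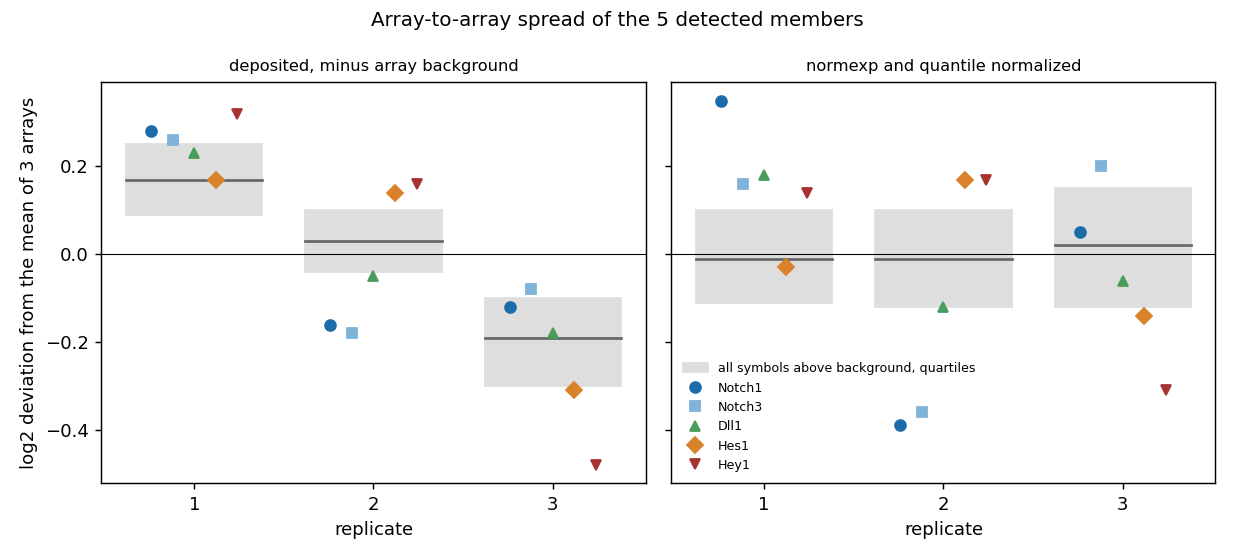
Log2 deviation from the mean of the 3 arrays (vertical axis) for the 5 detected genes on each replicate (horizontal axis), as deposited minus the background level of the array (left) and after normexp and quantile normalization (right), with gray boxes and lines for the quartiles and median of all 6357 symbols above background. *Notch1* and *Notch3* are low on replicate 2 and *Hey1* is low on replicate 3 in both panels.

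The tissue label was checked with marker lists, read beside the 20.6% of all symbols above background. Of the presomitic mesoderm and segmentation markers 6 of 9 were above background. The neural plate and the extraembryonic ectoderm lists had 3 of 10 each, a share that does not separate them. *Irx3* and *Otx2* were among the detected neural plate genes, and *Rhox5* and *Ets2* among the detected extraembryonic ectoderm genes. In the neural plate list 4 genes met the threshold on no array, *Hesx1* and *Pax6* among them, and in the extraembryonic ectoderm list 6, *Ascl2* and *Elf5* among them. Of all 30854 symbols, 20682 met it on no array, and the difference between these lists was not tested. All 13 visceral endoderm markers, which mark the outer layer of the conceptus and include *Apoa1* and *Amn*, were above background as well. The rows with the highest mean signal, a reading of the probes and not an order of RNA amounts, were *Spink3* in this list (12.12, 11.91, and 10.33) and *Rhox5* in the extraembryonic ectoderm list (9.81, 9.92, and 8.43).

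Each of the 6 tissue lists had its lowest summed intensity on replicate 3 on the deposited scale. The sums on replicates 1, 2, and 3 were 3259, 2446, and 1992 for the presomitic mesoderm list, 3410, 2921, and 2458 for neural plate, and 2126, 2054, and 1968 for endothelium and blood. They were 998, 954, and 786 for node and midline, 15127, 16145, and 7747 for visceral endoderm, and 2337, 2303, and 1374 for extraembryonic ectoderm. Replicate 3 was low for most symbols, with a median deviation of -0.19 over all symbols above background. The part of the array as a whole, or of visceral endoderm, in the values of *Hes1* and *Hey1* on replicate 3 was not tested.

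The rest of the pathway was read from a list of 56 further genes, 53 of them on the table. Of these, 17 (32.1%, beside 20.6% of all symbols) were above background on all 3 arrays, 6 on 2 arrays, 9 on 1 array, and 21 on none. Of all 30854 symbols, 1540 were above background on 2 arrays, 2275 on 1 array, and 20682 on none. The limma test called 26 of the 53 genes, beside 25.7% of all symbols. The counts by role that follow stand beside the same shares, and none of them was tested. Several probes were inferred for 28 of the 53 genes, and for 8190 of all 30854 symbols. Among the 36 genes that did not meet the threshold on all 3 arrays, 22 had several probes, so that their deposited values combine several probes. Of the 36, 11 were brighter than background on each of the 3 arrays in their mean signal. The matching share over all symbols was not computed, so this count is a description only.

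Of the other receptors and ligands, 1 of 6 (16.7%) was above background, near the 20.6% of all symbols. *Dlk1*, a membrane protein of the Delta family without the usual Notch-binding domain and an imprinted gene, was the gene detected, with log2 signals of 10.15, 10.40, and 9.16. The endothelial ligand *Dll4* had signals of 6.58, 6.46, and 6.42 and met the threshold on no array, nor did *Dlk2* (6.66, 6.52, and 6.53). *Notch4*, singled out after its values were seen, had signals of 7.67, 7.25, and 7.11 from at least 2 probes, all above background, but detection p-values of 0.141, 0.243, and 0.195. The limma test called it, at a level of 1.64.

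Of the enzymes that add sugars to Notch, 2 of 4 were above background. *Poglut1* (on the table under its older symbol *Ktelc1*), which adds glucose to the extracellular repeats of the receptor, had signals of 8.55, 8.24, and 7.81. *Rfng*, a fringe enzyme like *Lfng*, passed narrowly with detection p-values of 0.00748, 0.00107, and 0.00534. Its level of 0.16 had an adjusted p of 0.345 in limma with a common background level. *Mfng* passed on no array, and *Pofut1*, which adds the fucose that fringe enzymes extend, passed on 1 with detection p-values of 0.0232, 0.0271, and 0.006.

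Of 9 genes for receptor cleavage, 1 was above background by the detection rule and 6 by the limma test, beside 20.6% and 25.7% of all symbols, and 7 have several probes. *Psenen*, a gamma-secretase subunit with a single probe, had signals of 8.69, 8.67, and 8.51. *Adam10*, the protease of the first activating cut, had signals of 6.56, 6.46, and 6.38, all below background. *Adam17* had 7.92, 7.62, and 7.22, above the background level on each array, with a detection p under 0.01 on replicate 2 only.

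In the nuclear complex, 2 of 8 genes were above background, near the 20.6% of all symbols. *Kat2a*, a histone acetyltransferase, had signals of 8.69, 8.46, and 8.27, and the Mastermind coactivator *Maml2* had 7.48, 7.25, and 7.11. *Rbpj* itself, named after its values were seen, had signals of 6.52, 6.44, and 6.44 from at least 3 probes and detection p-values of 0.369, 0.748, and 0.53. It encodes the DNA-binding subunit that canonical Notch signaling uses. *Ep300*, another acetyltransferase, had signals of 8.32, 8.06, and 7.97 from at least 3 probes, all above background but without a detection call. The limma test called *Ep300* at a level of 2.83. *Kat2b* met the threshold on no array. Of the co-repressors that act in the absence of Notch or with Hes proteins, 2 of 7 (28.6%, beside 20.6% of all symbols) were above background, *Tle4* (8.60, 8.11, and 7.78) and *Spen* (7.03, 7.01, and 6.76). *Cir1* passed on 1 array and *Ctbp1* on none.

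Of the genes that act on the ligands, 3 of 5 were above background by the detection rule and all 5 by the limma test. *Mib1* and *Mib2*, ubiquitin ligases that send ligands into endocytosis, had signals of 7.17, 6.97, and 6.74 and of 7.93, 7.58, and 7.37. *Epn1*, an endocytic adaptor, had 6.96, 6.69, and 6.67. On replicate 2 *Epn1* lay 0.03 above the background level, and its adjusted p in limma was 0.0251, 0.0536 with a common background level, and at most 0.436 over the alternatives. *Epn2* and *Neurl1a* were each detected on 2 arrays. The limma test called each of them, at levels of 0.55 and 2.34 (limma adjusted p 0.000344 and 5.20e-06 with a common background level).

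Inhibitors and turnover genes were above background in 4 of 8 cases. *Nrarp*, a feedback inhibitor that is itself a Notch target, had signals of 8.17, 8.10, and 7.84 and a level of 2.73 above background (standard error 0.07, limma adjusted p 5.77e-06 with a common background level). *Dtx2*, a Deltex ubiquitin ligase, had 7.94, 7.74, and 7.55, and *Numb*, which antagonizes Notch in asymmetric division, 7.70, 7.71, and 7.37. *Dtx4* was detected with signals of 6.87, 6.60, and 6.64, of which that on replicate 2 lay below the background level, and limma did not call it (level 0.18, adjusted p 0.427, and 0.499 with a common background level). *Dtx1* and *Fbxw7* passed on 1 array each.

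Of the other *Hes* and *Hey* genes 2 of 6 were above background. *Hes6*, which counteracts Hes1, had signals of 7.07, 7.11, and 6.93, and *Hey2*, a partner of *Hey1* in the heart and vessels, had 6.74, 6.87, and 6.61. *Hey2* was at a level of 0.29 with an adjusted p of 0.144 in limma with a common background level, so its call rests on the detection p-values of 0.000276, 5.71e-07, and 0.00666. *Hes2* and *Hes3* met the threshold on no array.

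**Figure D4:**
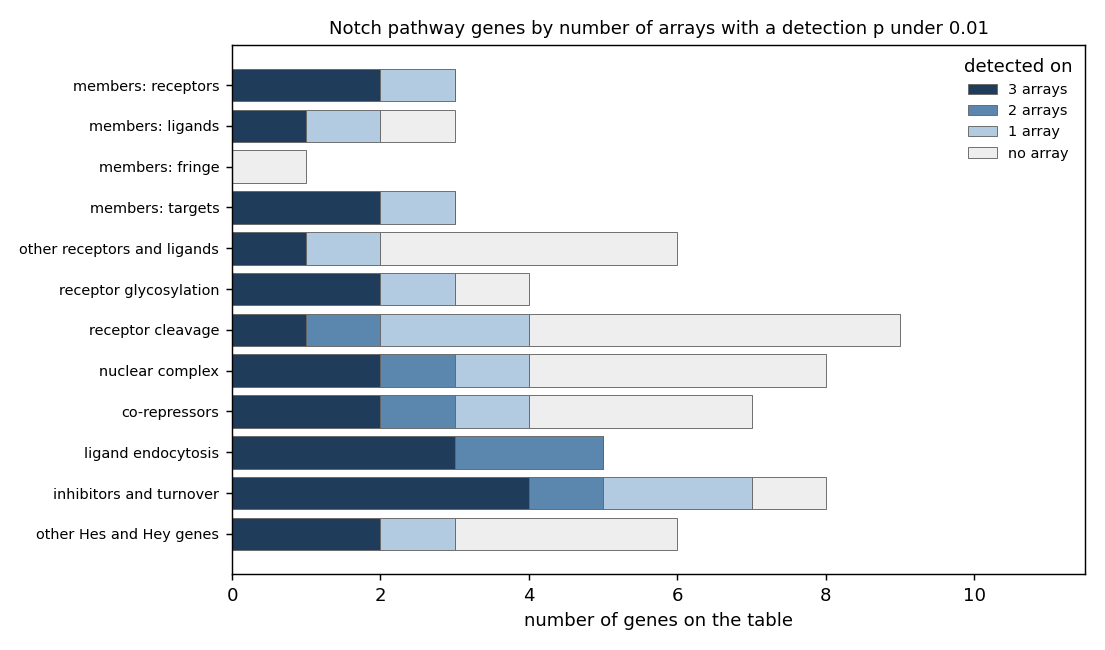
Number of genes on the table (horizontal axis) in each role of the Notch pathway (vertical axis), split by the number of arrays with a detection p under 0.01. Ligand endocytosis had 3 of 5 genes detected on all 3 arrays, and receptor cleavage 1 of 9.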

How the data were processed

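RNA of embryonic regions at the EHF stage was hybridized to 3 Illumina Mouse-6 arrays. The authors deposited log2 signals averaged per gene symbol and not normalized between arrays, with mean bead numbers, standard errors over beads, and detection p-values deposited beside them. Partek is named in the submitters' processing notes, and its settings are not given in the sources used here. The log2 scale was read from the range of the values. Median bead numbers were 44, 43.5, and 43, and 9015, 8220, and 7191 symbols had a detection p under 0.01. The small number of arrays limits the precision.

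Probes per symbol were inferred as the smallest number that made all bead numbers whole, which is a lower limit. The 21986 symbols with 1 probe and detection p-values on steps of 1 in 936 set the background. Signals were corrected with normexp (offset 16), quantile normalized, and tested with limma (lmFit, eBayes) over 30854 symbols. The test was run on simulated data in which all genes had the same spread and unexpressed genes lay below the background level. Real genes differ in spread and may lie at that level, so the run does not measure false calls in these data. Alternatives covered thresholds, normalizations, background levels, a filter, and leaving out each replicate.

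All 10 members are named. Of each further pathway list up to 4 detected genes with the highest lowest-array level and up to 2 undetected genes in alphabetical order are named (up to 2 and 2 for tissue lists), and others only where said. Members and lists were chosen with earlier results of these data known. Of 126 listed genes, 117 matched by current symbol, 5 by an older symbol through RefSeq (GRCm38.p6), and 4 were not matched. R 4.3.3, limma 3.58.1, Python 3.11.15, pandas 2.3.3, and matplotlib 3.10.9 were used.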

Additional observations from a re-analysis of the deposited data

How the results depend on the processing

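The 5 detected genes were the same with a detection p under 0.05 or 0.005, on at least 2 arrays, in the limma test, and without each replicate. The limma test shares the arrays and the detection threshold behind its background level, so its match is not independent. Asking for 1 array, which is easier to meet, gave 8 (adding *Notch2*, *Dll3*, and *Hes5*), 32 of the other pathway genes, and 10172 of all symbols. The limma test gave 26 other pathway genes, where the cause was not tested. Without a replicate the other pathway genes numbered 17 to 22. The limma calls numbered 5 in 8 alternatives and 4, losing *Notch1*, with median scaling and on the deposited signals. The level of *Jag1* turned from -0.27 to 0.05 with the background level at the 95th percentile of undetected symbols (adjusted p 0.931), where the background level is lower by construction. The median SD of the detected genes was 0.28 as deposited, 0.22 after median centring, 0.15 after quantile normalization, and 0.27 after normexp and quantile normalization. No paired analysis was possible because the arrays form a single group. Genes within the noise of the negative controls could not be told from absent ones.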

Other observations

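Genes of tissues in which Notch signaling is known to act were read beside the pathway. Of the presomitic mesoderm and segmentation list, *T*, a regulator of posterior mesoderm, had log2 signals of 10.78, 10.17, and 9.56, and *Meox1*, a somite gene, had 8.46, 8.44, and 8.43. *Tbx6*, an upstream activator of *Dll1* named after its values were seen, had 7.78, 7.22, and 7.06. *Mesp2*, which marks the next segment border and is a Notch target there, met the threshold on no array (6.52, 6.34, and 6.37), and *Cdx4* met it on 2. Of the neural plate list *Irx3* (10.48, 10.32, and 9.99) and *Otx2* (9.70, 9.39, and 9.29) were above background, while *Hesx1* and *Pax6* were not.

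Endothelium and blood genes were above background in 4 of 10 cases, beside 20.6% of all symbols. The early regulators *Etv2* (on the table as *Etsrp71*; 9.48, 9.25, and 9.56) and *Lmo2* (8.91, 9.08, and 8.75) were among them. *Cdh5*, a junction protein of formed endothelium, had 6.51, 6.55, and 6.40 and met the threshold on no array. *Flt1*, from at least 2 probes, met it on replicate 3 only, though its signals of 7.26, 7.26, and 6.76 all lay above background. The limma test called *Flt1* at a level of 1.13 (limma adjusted p 0.00103 with a common background level). Of the node and midline list 4 of 7 were above background (57.1%, beside the same 20.6%), among them *Shh* (7.69, 7.84, and 7.47) and *Chrd* (7.82, 7.65, and 7.25), while *Foxa2* and *Foxj1* met the threshold on 1 array each.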
